A study of Mus musculus and Homo sapiens with 83 samples.

Results

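The comparison set 12 single-cell K562 libraries made by AMAR-seq against 4 made by Smart-seq2, and asked which genes the separated cytoplasmic RNA holds less or more of than the whole cell. These 16 libraries were chosen by their titles from 42 RNA libraries among 83 samples. All came from K562, an established human chronic myeloid leukaemia line, untreated and kept in IMDM with serum. In AMAR-seq the cell is held on lectin-coated beads and its outer membrane is opened in hypotonic buffer, electrodes pull the released cytoplasmic droplet away from the intact nucleus, and polyadenylated RNA in the droplet is made into cDNA on the chip with Smart-seq2 chemistry. The 4 Smart-seq2 libraries carry the plain name of that workflow, in which a whole cell is lysed. The 2 bulk K562 RNA libraries served as another measurement of the line, outside both groups.

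A polyadenylated transcript is made and processed in the nucleus and becomes available for translation only after export. Some transcripts are exported fast and are found mostly in the cytoplasm, while others, such as certain long noncoding RNAs and incompletely spliced mRNAs, stay in the nucleus. A whole-cell library counts both pools, whereas a library from separated cytoplasm should hold the exported pool and the transcripts of mitochondria that left with it. The files identify human genes by Ensembl ID only, and none of the 60623 IDs (0) had a name in the tables at hand, so genes are described below by their level and not by function. For the same reason, K562 markers, nuclear transcripts and markers of other cell types were not evaluated, and the labelled line and fraction were not checked against them.

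Each library is labelled as a single cell and no separate cultures are named, so each group counts as 1 sample. No test of a difference between the groups was made, and ranges over cells describe these libraries. Smart-seq2 replicates 2 and 3 were near repeats, with a chi-square per degree of freedom of 2.06 over genes, against 77.3 to 137 for the other 5 Smart-seq2 pairs and 39.3 to 1231 for the 66 AMAR-seq pairs. Whether they hold separate cells is not known, and they were counted as 1 library by their mean, which left 3 Smart-seq2 libraries. Reads on genes numbered 4094540 to 7452478 per AMAR-seq library (median 5941786), and 4290751, 8334854 and 9062258 in the Smart-seq2 libraries. The preparation differed between the groups in more than the fraction (chip or not, and any separate handling or sequencing), and these differences cannot be told apart from the removal of the nucleus.

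The AMAR-seq libraries put more of their reads on their 50 most abundant genes. The 50 most abundant genes of each library took 33.9% to 80.4% of gene reads in the AMAR-seq libraries (median 53.8%). The same measure was 21.8% to 30.4% in Smart-seq2, and 25.9% and 26.6% in bulk RNA. Every AMAR-seq library lay above every Smart-seq2 library. The single most abundant gene took 3.01% to 14.1% in AMAR-seq (median 9.16%), against 1.70% to 2.83% in Smart-seq2. For the 10 most abundant genes the groups overlapped, at 14.85% to 73.5% (median 39.7%) against 9.66% to 17.8%. AMAR-seq cell 1, the lowest, lay below Smart-seq2 replicate 4. These top lists varied between cells: 131 genes entered the top 50 of at least 1 AMAR-seq library, 42 of them in 1 library alone, and 14 stood in the top 50 of all 12. Of these 14 genes, 10 were also in the top 50 of all 3 Smart-seq2 libraries. The 14 genes took 15.5% to 66.7% of reads in AMAR-seq (median 38.5%), 8.74% to 17.9% in Smart-seq2, and 14.1% and 14.6% in bulk. These ranges overlapped. The 14 genes were picked by their place in the AMAR-seq lists, which favours a higher AMAR-seq share, so their shares are no separate result.

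A higher AMAR-seq share was also seen with a set of genes that neither group defined. The 128 compared genes with at least 1000 reads per 1000000 gene reads (CPM) in bulk RNA took 39.8% to 82.0% of reads in AMAR-seq, with a median of 62.4%. In the Smart-seq2 libraries they took 30.1%, 37.5% and 38.4%, and in bulk 37.1% and 38.2%, so the AMAR-seq and Smart-seq2 libraries did not overlap. The 22 members at least 2-fold higher in AMAR-seq, picked out by this same contrast, took 10.6% to 76.8% of AMAR-seq reads and 7.16% to 17.0% of Smart-seq2 reads. The members within 2-fold took 3.59% to 33.1% (median 15.3%) and 20.8% to 24.95%. AMAR-seq cell 1 differed from this split, with 10.6% on the 22 members, below 2 of the Smart-seq2 libraries, and 32.5% on those within 2-fold, above all of them. AMAR-seq cells 9 and 7 stood highest for the 128 genes, at 82.0% and 76.1%, and cells 6, 4 and 5 lowest, at 39.76%, 40.01% and 40.06%.

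**Figure D1:**
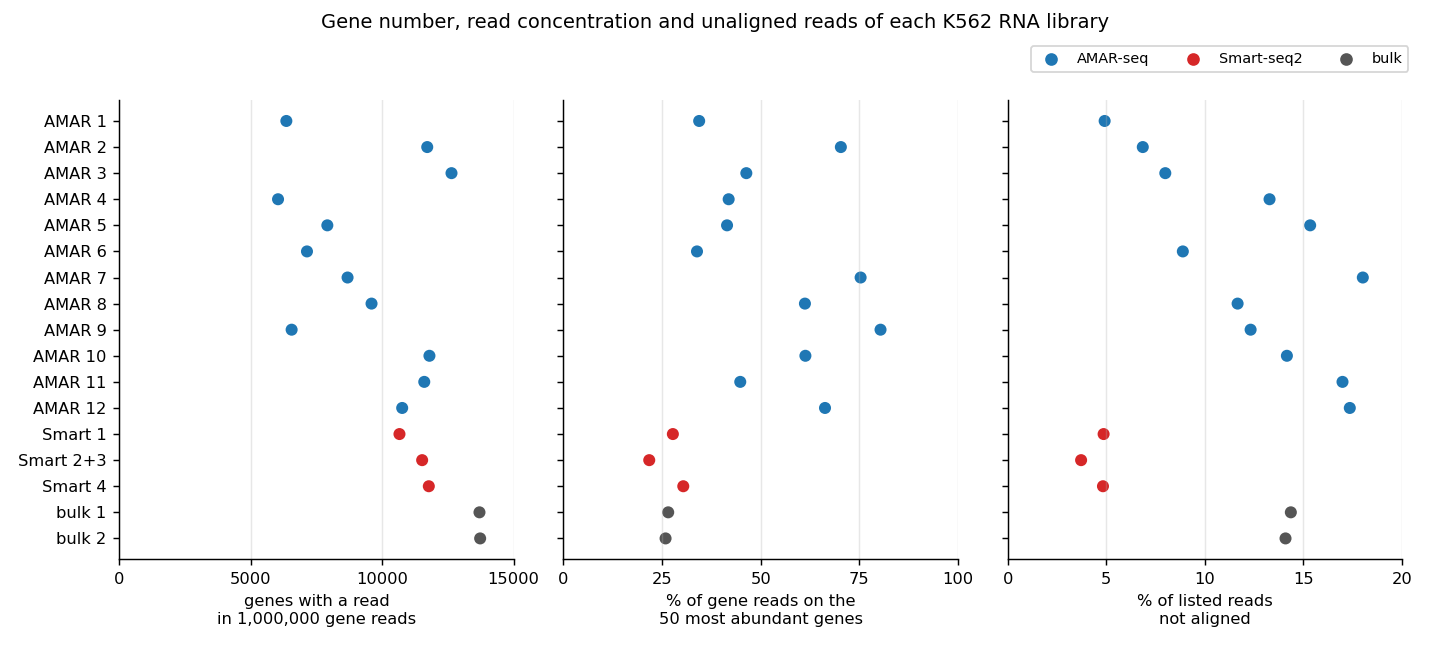
Each point is 1 K562 RNA library (rows). The panels show the expected number of genes with a read in 1000000 gene reads, the percent of gene reads on the 50 most abundant genes, and the percent of the reads listed in the file that did not align; Smart 2+3 is the mean of both near repeats. All 12 AMAR-seq libraries lie above the Smart-seq2 libraries for the middle and right panels, while gene numbers overlap.

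Reads that fell on no gene also differed. Unaligned reads were 4.92% to 18.0% of all reads listed in an AMAR-seq file (median 12.8%) and 3.72% to 4.86% in Smart-seq2, a gap of less than 0.1 points between the nearest libraries. Bulk RNA stood at 14.1% and 14.4%. Reads aligned at several places were 7.30% to 36.5% in AMAR-seq (median 17.6%), against 7.95% to 10.8% in Smart-seq2. Reads outside annotated genes, a class that takes in intronic and intergenic reads if only exons were counted, were 1.27% to 8.17% in AMAR-seq (median 4.00%) and 1.69% to 2.35% in Smart-seq2. Reads shared by overlapping genes went the other way, at 2.75% to 14.4% (median 6.37%) against 13.1% to 14.2%. The groups overlapped for these 3 classes. Reads of too low alignment quality overlapped as well, at 0.26% to 1.66% in AMAR-seq (median 0.73%) and 0.48% to 0.84% in Smart-seq2. In bulk RNA this share was 6.60% and 6.92%. The widest 95% Wilson interval of any of these shares reached 0.029 percentage points to each side, and covers counting error only.

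Levels were compared as summed CPM for 15452 genes, which had 20 or more reads in the groups together and were seen in at least 2 libraries. The 12 AMAR-seq cells held 69733263 gene reads and the Smart-seq2 libraries 21687863. The median log2 ratio of AMAR-seq to Smart-seq2, with 1 CPM added to each level, was -0.28. This median changed sign with the scaling, to 0.24 with TMM and 0.41 with DESeq2 size factors. The log2 ratios of genes and of classes of genes below are therefore given relative to the median gene. Folds of summed CPM for single IDs, and comparisons of every library with every other, used CPM without this step. On that scale 3023 genes (19.6%) were at least 2-fold higher in AMAR-seq, 3420 (22.1%) were at least 2-fold lower and 9009 (58.3%) lay within 2-fold. Before the median was subtracted, 2027 genes were 2-fold higher and 4616 were 2-fold lower. At least 4-fold differences were seen for 802 genes higher and 767 genes lower, and the 25th and 75th percentiles of all relative log2 ratios were -0.89 and 0.82.

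A stricter description asked that every library of one group lie above every library of the other. For 799 genes (5.17%) every AMAR-seq library was below every Smart-seq2 library, and for 11 genes (0.0712%) every AMAR-seq library was above. A single AMAR-seq cell without reads removes a gene from the second count but not from the first, so both counts cannot be set against each other as shares of lower and higher genes. With DESeq2 size factors they were 261 and 67, and with TMM 348 and 34. Without Smart-seq2 replicate 1 the first count was 1404, and without AMAR-seq cell 1 the second was 31. Without Smart-seq2 replicate 4 the second count was 19.

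**Figure D2:**
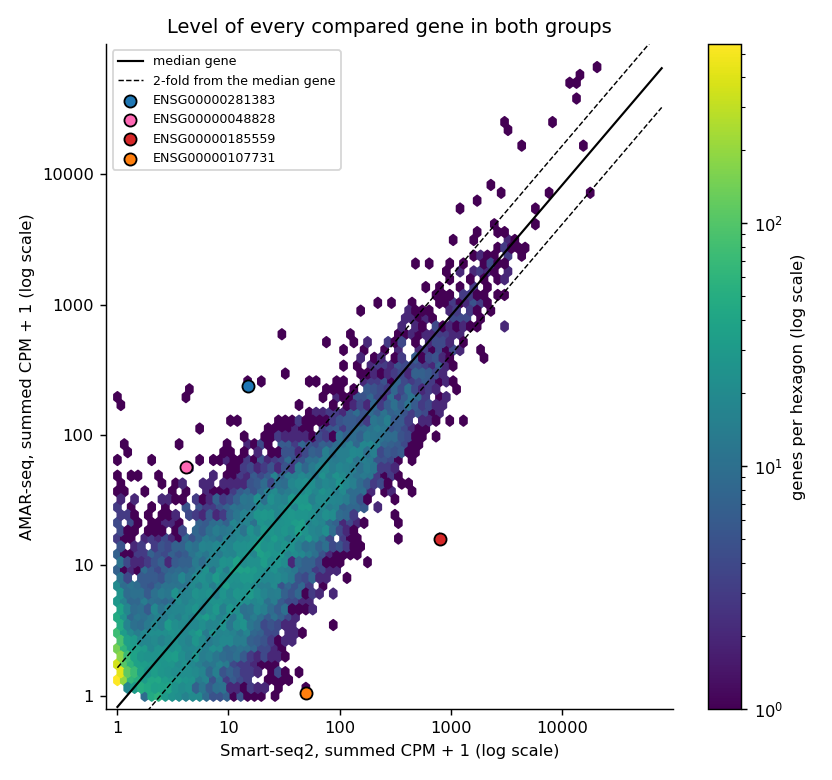
Each hexagon holds genes at one pair of levels, with the summed CPM + 1 of the Smart-seq2 libraries on the x axis and of the AMAR-seq libraries on the y axis, both on log scales, and its colour gives the number of genes. The solid line marks the median gene and the dashed lines 2-fold to either side; the 4 marked gene IDs lie far outside these lines, 2 above and 2 below.

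When genes were sorted by their level in bulk RNA, genes of middle to high level were lower in AMAR-seq relative to the median gene. The 2259 genes at 50 to under 200 CPM in bulk had a median relative log2 ratio of -0.56, with 677 at least 2-fold lower and 153 (6.77%) at least 2-fold higher. The 716 genes at 200 to under 1000 CPM had -0.57, with 202 (28.2%) lower and 40 (5.59%) higher. Over all genes compared, 22.1% were lower and 19.6% higher. Taken 1 cell at a time, the median of the 50 to under 200 CPM genes was below the median gene in 11 of 12 AMAR-seq cells, from -1.31 to 0.31, and that of the 200 to under 1000 CPM genes in 10 of 12, from -1.79 to 0.84. Both medians stayed negative under every alternative tried, from -0.87 to -0.26, each relative to the median gene of that alternative. With TMM they were -0.40 and -0.39 after a median of 0.24 was subtracted, and so were negative before that step as well. With DESeq2 size factors they were -0.33 and -0.31 after a median of 0.41 was subtracted, and so were not negative before it.

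The most abundant class departed from this pattern. The 128 genes at 1000 CPM or more had a median of -0.04, with 22 (17.2%) higher and 5 (3.91%) lower. Single cells spread from -1.81 to 1.16 around the median gene, 4 below it and 8 above it. The sign of this median was not stable, as it ran from -0.345 to 0.26 over the alternatives and was 0.13 without Smart-seq2 replicate 1. The lowest came at a minimum of 1 read and the highest at 200 reads. The subtracted median of all genes moved there too, to 0.021 and -0.583.

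Genes that bulk RNA hardly held were nominally higher in AMAR-seq, and the size of this depended on the processing. The 2988 genes above 0 and under 1 CPM in bulk had a median of 0.66, with 783 (26.2%) higher and 386 (12.9%) lower, and the 563 genes without a bulk read had 0.71. With every gene of at least 1 read compared, these medians were 0.06 and 0.02. The AMAR-seq sum holds 3.22 times as many reads as the Smart-seq2 sum, so at an equal level a gene has more of the 20 reads from AMAR-seq. Between these classes and the lower ones, the 4492 genes at 1 to under 10 CPM had 0.17 and the 4306 genes at 10 to under 50 CPM had -0.22. Both changed sign with the minimum, the former to -0.06 at 1 read and the latter to 0.065 at 200 reads. The subtracted median of all genes moved with the minimum too, from -0.285 to 0.021 at 1 read and -0.583 at 200 reads. These sign changes are therefore not changes of the 2 classes alone.

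**Figure D3:**
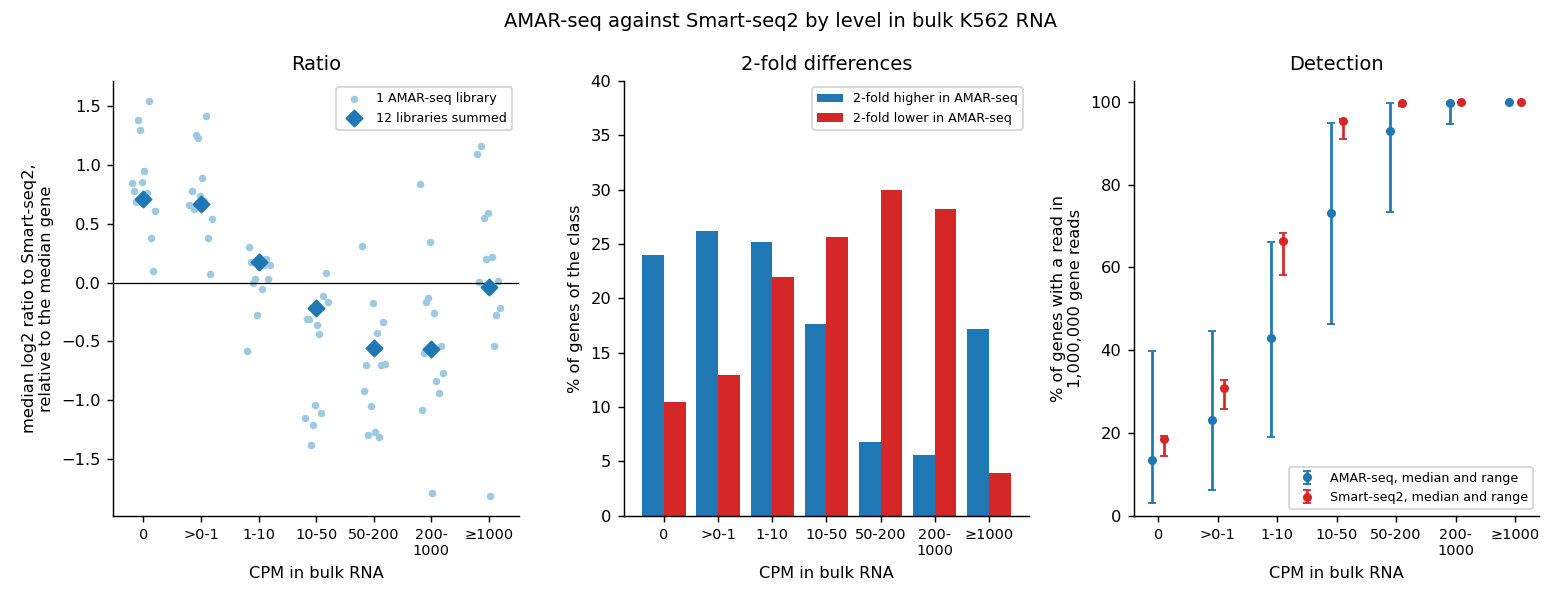
Genes are grouped by CPM in bulk K562 RNA (x axis of each panel). Left, median log2 ratio of AMAR-seq to Smart-seq2 relative to the median gene, for the 12 libraries summed (diamonds) and for each library (points). Middle, percent of genes in each class at least 2-fold higher or lower. Right, percent of genes with a read in 1000000 gene reads, as the median (point) and the lowest and highest library (bars). The classes from 50 to under 1000 CPM lie lowest in the left panel, at -0.56 and -0.57.

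Fewer genes were detected in the typical AMAR-seq cell. In 1000000 random gene reads a median of 9140.5 genes had a read in AMAR-seq, with cells from 6040.1 to 12638. The Smart-seq2 libraries had 10659, 11522 and 11775, and bulk RNA 13702 and 13728, so the single-cell groups overlapped. After the 50 most abundant genes of each library were taken out, the AMAR-seq median was 11120 (6535 to 14368) and the Smart-seq2 median 11748 (11066 to 12252). Over all their reads, AMAR-seq cells had reads on 7494 to 17054 genes. Cells 1, 4 and 6, each under 10000 genes, had the fewest.

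The genes missed included abundant ones. Of 3104 genes at 50 CPM or more in bulk, 2144 (69.1%) had a read in all 12 AMAR-seq cells and 3100 (99.9%) in all 3 Smart-seq2 libraries. The first share asks for a read in more libraries, and in the averaged library a read in either near repeat counted. These shares therefore cannot be set against each other, and the values per library below can. No read was found in 1 AMAR-seq cell for 604 of these genes, in 2 or 3 cells for 320, in 4 to 6 for 34 and in 7 or more for 2. A single AMAR-seq cell lacked 2 to 355 of the 3104 genes (0.0644% to 11.4%, median 3.21%), whereas a Smart-seq2 library lacked 2 or 3. At 1000000 reads, detection of genes at 10 to under 50 CPM was 46.3% to 94.9% of genes in AMAR-seq (median 73.1%) and 91.1% to 95.8% in Smart-seq2 (median 95.3%). For genes at 200 to under 1000 CPM it was 94.6% to 100% and 99.98% to 99.99%.

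Levels in CPM varied more between AMAR-seq cells than between Smart-seq2 libraries. No shift shared by all genes of a library was removed, so differences in scaling count here beside differences of single genes. Both were not separated, and the Smart-seq2 pairs include the mean of the near repeats. For genes at 50 to under 200 CPM in bulk, the median absolute difference between a pair of cells in log2(CPM + 1) was 1.75 over 66 AMAR-seq pairs (0.63 to 2.84) and 0.69 over 3 Smart-seq2 pairs (0.54 to 0.77). For genes at 1000 CPM or more it was 1.23 (0.25 to 3.33) against 0.43 (0.40 to 0.44). The ranges overlapped, since the closest AMAR-seq pairs differed as little as Smart-seq2 pairs. For genes at 1 to under 10 CPM the medians were nearer each other, at 0.98 and 0.80.

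Across the 15452 genes, which are not independent replicates, Pearson's r of log2(CPM + 1) between pairs of AMAR-seq cells had a median of 0.67 (0.46 to 0.85; Spearman 0.59). Between Smart-seq2 libraries it was 0.89 (0.87 to 0.91; Spearman 0.88), and between AMAR-seq and Smart-seq2 libraries 0.75 (0.57 to 0.83; Spearman 0.67). With bulk RNA, AMAR-seq cells had 0.77 (0.61 to 0.85) and Smart-seq2 libraries 0.85 (0.82 to 0.87). For 11 of the 12 AMAR-seq cells the mean r was higher with the Smart-seq2 libraries than with the other AMAR-seq cells. The margin was small in some, such as cell 9 with 0.619 against 0.616. For 10 of the 12 the mean r was higher with bulk RNA than with Smart-seq2. A lower r among AMAR-seq cells can come from their wider spread, so these counts do not measure likeness alone. Cell 11 was nearest to bulk RNA, with a mean r of 0.85, and cell 4 farthest, with 0.61.

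**Figure D4:**
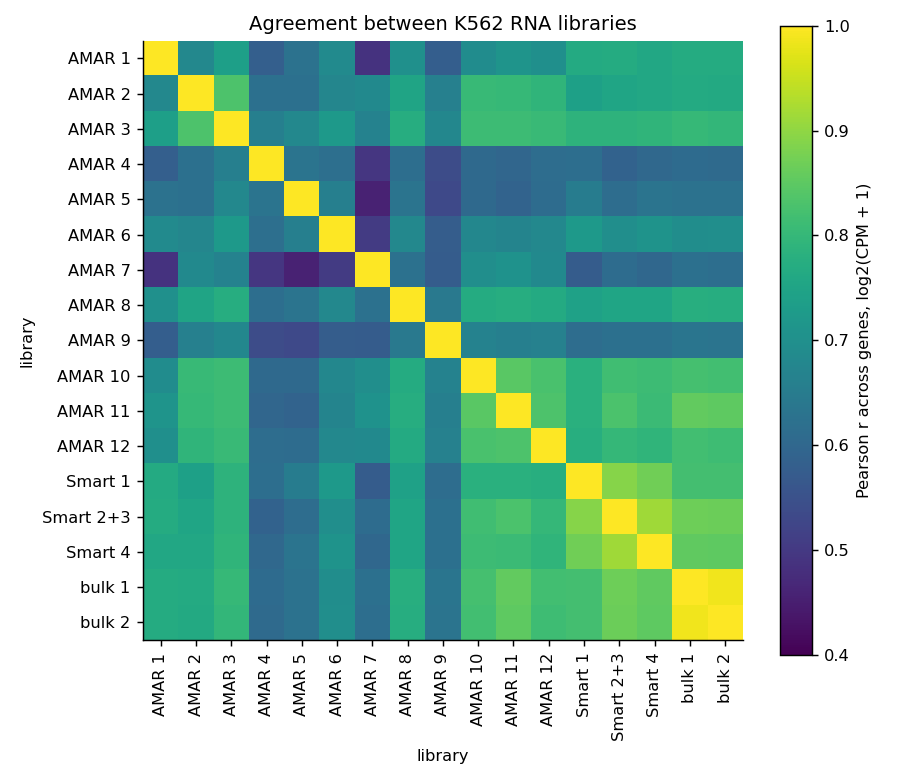
Pearson's r across 15452 genes of log2(CPM + 1) between each pair of K562 RNA libraries (rows and columns), with the colour scale from 0.4 to 1. The Smart-seq2 and bulk libraries form a block of high values in the lower right corner, and AMAR-seq cells 4, 5, 7 and 9 have low values with most other AMAR-seq cells.

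Bulk RNA gave a further value for the genes that differed. The 3420 genes at least 2-fold lower in AMAR-seq, which this contrast selected, had median levels of 4.99 CPM in AMAR-seq, 23.95 CPM in Smart-seq2 and 15.2 CPM in bulk. Bulk lay between both for 2084 of these 3420 genes, above both for 858 and below both for 478. For the 9009 genes within 2-fold these counts were 2254, 4488 and 2267. Genes picked for a wide gap between the groups hold bulk inside that gap more readily, so these counts are no separate result. Among the 3420 genes, bulk was nearer to AMAR-seq than to Smart-seq2 for 1514 (44.3%), beside 47.0% of the genes within 2-fold. For the 519 genes with every AMAR-seq library below every Smart-seq2 library and at least 20 CPM in Smart-seq2, the medians were 18.0, 89.45 and 52.6 CPM, and bulk was nearer to AMAR-seq for 216 (41.6%). The 3023 genes at least 2-fold higher in AMAR-seq had medians of 4.83, 0.576 and 3.77 CPM, and bulk was nearer to AMAR-seq for 1738 (57.5%). Bulk lay between both groups for 1586 of them, above both for 1048 and below both for 389.

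Some genes were found in one group alone. Of the 15452 genes compared, 92 had 0 reads over the AMAR-seq cells, where 3 reads would be 0.0430 CPM of the sum. Their median in Smart-seq2 was 1.91 CPM, 13 reached 5 CPM and the highest reached 25.3 CPM. The 1206 genes with 0 reads in Smart-seq2, where 3 reads would be 0.138 CPM, had a median of 0.645 CPM in AMAR-seq, and 60 reached 5 CPM. Of these 1206 genes, 453 had reads in 2 or 3 AMAR-seq cells, 388 in at least 6 and 4 in all 12. All these genes met the minimum of 20 reads through the other group alone, and 20 reads are a lower CPM in the deeper AMAR-seq sum. The counts of 92 and 1206 and their medians therefore cannot be set against each other. The AMAR-seq sum also held more cells, and the part of depth and cell number in the difference was not tested.

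A few IDs show what single genes looked like. The rule took the most extreme IDs at 20 CPM or more whose groups did not overlap and whose 2-fold ratio held without any 1 library. Of the 15452 genes compared, 492 met it below Smart-seq2 and 1 met it above. As before, a single AMAR-seq cell without reads removes an ID from the second count only. These counts therefore cannot be set against each other. ENSG00000281383 was the one above. Its level was 49.0 CPM in the lowest AMAR-seq cell, 175 CPM in the median cell and 794.5 CPM in the highest, and 19.1, 8.998 and 12.6 CPM in the Smart-seq2 libraries. The groups were apart by more than 2-fold at their nearest libraries, and bulk was lower still, at 5.65 and 4.03 CPM. The summed level was 237 CPM (95% exact Poisson interval 234 to 241) against 13.9 CPM (12.4 to 15.6), a ratio of 17.05 (exact conditional binomial interval 15.2 to 19.2). Such intervals, here and for the IDs below, cover counting error only and not the spread between cells. For Smart-seq2 they are approximate, as the near repeats entered as a mean. Its relative log2 ratio was 4.28, and 4.08 to 4.75 without any 1 replicate. Without Smart-seq2 replicates 2 and 3 together, which count as 1 library, it was 3.78.

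ENSG00000048828 was chosen after the values were seen, by a looser rule that 123 further IDs met: at least 20 CPM and reads in all 12 AMAR-seq cells, a median cell above every Smart-seq2 library, and the 2-fold ratio held without any 1 library. It had the highest relative log2 ratio of the 123. It ranged over cells from 0.268 CPM through a median of 16.2 CPM to 378 CPM, against 0.441, 3.90 and 7.46 CPM in Smart-seq2. These groups overlapped, as 3 AMAR-seq cells were under 1 CPM. Bulk RNA held 45.1 and 50.2 CPM, above all Smart-seq2 libraries and inside the AMAR-seq range. The summed levels of 55.5 CPM (53.8 to 57.3) and 3.16 CPM (2.455 to 4.00) gave a relative log2 ratio of 4.05, which was 2.67 without AMAR-seq cell 4.

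ENSG00000185559 had the lowest relative log2 ratio by the rule. It had reads in 10 of 12 AMAR-seq cells, with a median of 8.40 CPM and a highest value of 63.8 CPM. The Smart-seq2 libraries held 242, 215 and 3086 CPM, of which the last was replicate 4, and bulk held 83.3 and 89.2 CPM. Bulk lay between the groups. The summed levels of 14.8 CPM (13.95 to 15.8) and 794 CPM (782 to 806) gave a Smart-seq2 level 53.5-fold higher (50.25 to 57.0). The relative log2 ratio was -5.36, and -3.63 without Smart-seq2 replicate 4.

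ENSG00000107731 was next, and was nearly absent from both AMAR-seq and bulk. In AMAR-seq it had 4 reads in 3 of 12 cells, the highest at 0.292 CPM, where 3 reads in a single AMAR-seq library would be 0.403 to 0.733 CPM. The Smart-seq2 libraries held 18.2, 85.4 and 41.2 CPM, and bulk 0 and 0.484 CPM. The Smart-seq2 libraries stood apart from both other kinds. The summed levels were 48.6 CPM (45.7 to 51.6) in Smart-seq2 and 0.0574 CPM (0.0156 to 0.147) in AMAR-seq. Their ratio had an exact conditional binomial interval of 330 to 3114, and it rests on those 4 reads. The relative log2 ratio of -5.27 depended on the pseudocount, at -7.92 with 0.1 CPM and -2.44 with 10 CPM.

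**Figure D5:**
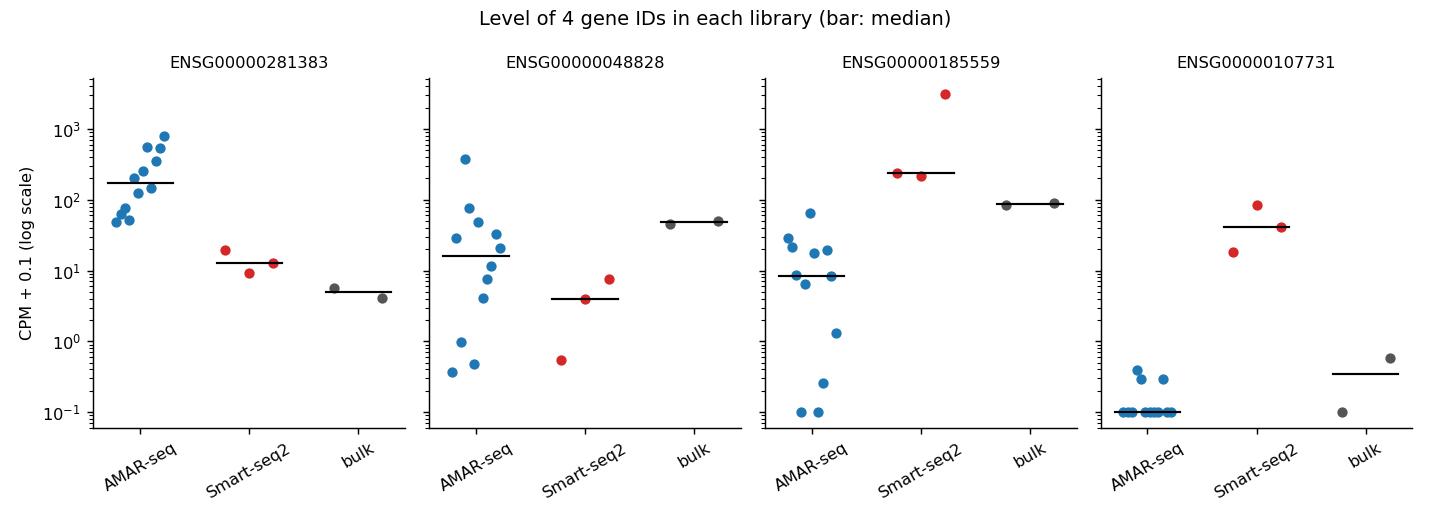
CPM + 0.1 on a log axis for 4 gene IDs in each AMAR-seq, Smart-seq2 and bulk library (points, placed left to right by replicate number, which carries no order), with the median of each kind (bars). ENSG00000281383 lies above Smart-seq2 in all 12 AMAR-seq cells, ENSG00000048828 overlaps, and ENSG00000185559 and ENSG00000107731 lie below; bulk RNA is near AMAR-seq for ENSG00000107731, above the highest AMAR-seq cell for ENSG00000185559 and outside both groups for ENSG00000281383.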

How the data were processed

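RNA of single K562 cells and bulk K562 RNA was measured. The authors deposited raw read counts per gene, 1 library a file, and the 5 closing lines of each file, which name no gene, were kept out of totals; the report gives their shares. Builds hg38 and mm10 and the tools Bismark, Bowtie2 2.2.9 and Trim Galore 0.6.7 are listed without roles, per the submitters' processing notes. How RNA reads were aligned and counted, with which annotation and use of strand, is not given in the sources used here. Smart-seq2 chemistry adds no molecular identifiers.

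Counts were summed per group and scaled to CPM (Poisson and binomial intervals at 95% cover counting error only). Ratios used a pseudocount of 1 CPM, so they understate changes of low genes, less the median of genes with at least 20 reads. Classes by bulk level were chosen after the data were seen; members and lists were chosen with earlier results of these data known. Of the lists, 33 by gene symbol could not be evaluated without human names. The rule for named IDs took up to 2 a side, the most extreme ratios at 20 CPM or more with non-overlapping groups and a 2-fold ratio kept without any 1 library. It gave 1 higher ID, and the other was chosen after values were seen, by the looser rule in the report; ribosomal protein, mitochondrial and pseudogene IDs were not left out, for want of names. The ratio was tested on simulated data against the true ratio with the pseudocount included, a target set after plain fold changes of low genes were not recovered. Alternatives covered scaling, summary, totals, pseudocount, filter and left-out libraries. All cells were kept, without a search for doublets. Python 3.11.15 (numpy 2.4.6, pandas 2.3.3, scipy 1.17.1, matplotlib 3.10.9) and R 4.3.3 (edgeR 4.0.16, DESeq2 1.42.0) were used.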

Additional observations from a re-analysis of the deposited data

How the results depend on the processing

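Of 466 values recomputed under 30 alternatives, 423 stayed within 1.5 times the count or 1 SD over AMAR-seq cells. The median log2 ratio of all genes, -0.28 in CPM, was 0.24 with TMM, 0.41 with DESeq2 size factors, 0.28 with totals without the 50 most abundant genes of each library and -0.71 with medians of CPM over cells. Genes 2-fold higher were 1938 with medians over cells, 4914 and 500 with pseudocounts of 0.1 and 10 CPM and 1986 with a minimum of 1 read; genes 2-fold lower were 1737 with 10 CPM and 1931 with 200 reads. Genes with every AMAR-seq library below Smart-seq2 (799) were 348 with TMM, 261 with DESeq2, 313 without the top 50 and 1469 without AMAR-seq cells 1, 4 and 6; those above (11) were 34, 67, 49 and 91, and 23 without cells 7 and 9. Without any 1 library they ranged from 784 to 1404 and from 10 to 31.

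The median of genes without a bulk read was 0.23 with TMM, 0.13 with DESeq2, 2.36 and 0.16 with pseudocounts of 0.1 and 10 CPM, and 0.02 and 2.60 with minimums of 1 and 200 reads. That of genes above 0 and under 1 CPM was 0.20, 0.11, 1.64, 0.15, 0.06 and 1.13 in the same order. The 4 named IDs kept their direction under these alternatives. For the runs without any 1 library this was required by the rules that chose them, so it is no support there. The relative log2 ratio of ENSG00000107731 moved in 9 of 29, from -5.27 to -7.92 and -2.44 with pseudocounts of 0.1 and 10 CPM and to -6.17 without the top 50. Leaving out cells 7 and 9, cells 1, 4 and 6, or both near repeats was chosen after the data were seen. Totals without mitochondrially encoded genes, gene lists and annotation classes were not run, since no table named the human IDs. No paired analysis was possible because the results come from no test and a shared number marks no shared culture. Few cells, the 3 Smart-seq2 libraries above all, limit every range, and genes under about 1 CPM lie near the floor of a single library.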
